A study of Mus musculus with 8 samples.

Results

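Satb1, a chromatin organiser, and Zdhhc8, a palmitoyltransferase, are a pair of genes that the study proposed as protective regulators of dopaminergic neurons. They are described here with the palmitoyltransferases Zdhhc5, Zdhhc17 and Zdhhc2, which makes 5 genes of the 21761 in the deposited count table. The genes were chosen by name, and all 5 were in the table and passed the filter on low counts. Ribosome-associated RNA was sequenced from midbrain dopaminergic neurons of C57BL/6 mice by translating ribosome affinity purification (TRAP), in which RNA is pulled down with tagged ribosomes. In the MPTP group (4 libraries) the mice had MPTP-HCl injected into the peritoneum on each of 5 days at 30 mg/kg free base. In the saline group (4 libraries) they had saline on the same schedule, and tissue of both groups was taken 4 days after the last injection. MPTP is turned in the brain into a mitochondrial toxin that dopaminergic neurons take up. The sources used here do not give the promoter behind the ribosome tag, the age of the mice, or whether animals were pooled. The authors' name for the deposited counts holds SN, the usual short form of substantia nigra, while the protocol also covers ventral tegmental neurons without saying which applies to each library.

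Satb1 protein binds AT-rich DNA at the base of chromatin loops and recruits chromatin remodellers and histone deacetylases. In dopaminergic neurons it has been described as a repressor of Cdkn1a, the cell cycle inhibitor p21, and its loss as a trigger of senescence. Zdhhc8, Zdhhc5, Zdhhc17 and Zdhhc2 belong to the DHHC family, membrane enzymes that attach palmitate to cysteines of other proteins. Their catalytic core holds the residues Asp-His-His-Cys, and the lipid they add anchors synaptic proteins, receptors and G proteins in membranes.

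The coding sequence around those 4 codons shows how alike the members are. Each line gives 72 bases of the GENCODE GRCm38 transcript, written 5′ to 3′ on the coding strand, with the Asp-His-His-Cys codons in capitals.
Zdhhc8: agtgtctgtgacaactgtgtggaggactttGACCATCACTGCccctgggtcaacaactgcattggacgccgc
Zdhhc5: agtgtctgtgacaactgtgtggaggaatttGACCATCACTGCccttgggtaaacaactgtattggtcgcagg
Zdhhc17: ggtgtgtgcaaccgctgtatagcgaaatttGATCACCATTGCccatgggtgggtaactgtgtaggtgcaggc
Zdhhc2: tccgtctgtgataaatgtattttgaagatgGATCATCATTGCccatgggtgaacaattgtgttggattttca

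The stretch covers codons 121 to 144 of 762 in Zdhhc8 and codons 121 to 144 of 715 in Zdhhc5. It covers codons 454 to 477 of 632 in Zdhhc17 and codons 143 to 166 of 366 in Zdhhc2. The stretches of Zdhhc8 and Zdhhc5 were identical at 65 of 72 bases (90.3%). Every other pair was identical at 43 to 47 bases (59.7% to 65.3%), with Zdhhc17 and Zdhhc2 the least alike. The 4 codons in this order and frame were found in 23 of 24 DHHC genes, all but Zdhhc13, and in 33 of 21713 protein-coding genes (0.152%). The stretch is split by introns. For Zdhhc8 it lies at chr16:18228314-18228337 and chr16:18228184-18228231 on the minus strand, and for Zdhhc5 at chr2:84696243-84696266 and chr2:84694695-84694742 on the minus strand. For Zdhhc17 it lies at chr10:110948191-110948254 and chr10:110947375-110947382 on the minus strand, and for Zdhhc2 at chr8:40456087-40456100, chr8:40456663-40456695 and chr8:40462088-40462112 on the plus strand.

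Sequence likeness bears on how far 100-base reads can tell the genes apart. The longest run shared letter for letter by Zdhhc8 and Zdhhc5 transcripts was 32 bases. It was at most 16 bases between Zdhhc17 and any other DHHC gene (Zdhhc21) and at most 22 bases between Zdhhc2 and any other (Zdhhc3). No run shared among the DHHC genes here reached the length of a read.

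The genes themselves lie on separate chromosomes in GRCm38. Satb1 spans chr17:51736187-51833290 (minus strand), Zdhhc8 chr16:18220753-18235136 (minus), Zdhhc5 chr2:84687970-84715180 (minus), Zdhhc17 chr10:110941780-111010140 (minus) and Zdhhc2 chr8:40423815-40510268 (plus). The counting was not stated to use strand, so reads from overlapping genes cannot be told apart. Exons of Zdhhc8 and Zdhhc17 overlapped no other annotated exon. Satb1 shared 284 exonic bases (2.47%) with the predicted genes Gm6934 and Gm36931, Zdhhc5 shared 246 bases (5.23%) with Med19, and Zdhhc2 shared 192 bases (5.37%) with Cnot7.

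The libraries held 54192354 to 78892061 counts. All 16 markers of dopaminergic neurons were counted in every library, and their summed level was 9332 to 11060 CPM (counts relative to the scaled library size, in the usual unit) in MPTP against 8336 to 13900 CPM in saline. Markers of other cell types were counted too, with none of their lists' genes at 0 in any library. Their sums were 1172 to 1350 CPM in MPTP against 807.7 to 1724 CPM in saline for 14 oligodendrocyte genes, and 477.0 to 539.4 CPM in MPTP against 376.5 to 570.1 CPM in saline for 12 astrocyte genes. The 14 microglial genes summed to 58.2 to 68.5 CPM in MPTP against 52.2 to 65.7 CPM in saline, and the 12 endothelial and mural genes to 14.1 to 22.1 CPM in MPTP against 11.7 to 28.2 CPM in saline. The 8 GABAergic genes summed to 401.9 to 500.9 CPM in MPTP against 378.7 to 596.5 CPM in saline, and the 6 glutamatergic genes to 83.7 to 108.4 CPM in MPTP against 70.9 to 113.6 CPM in saline. The library saline 3 stood apart. It had the lowest dopaminergic sum of all 8 libraries (8336 CPM, other saline libraries 12880 to 13900) and the highest oligodendrocyte sum (1724 CPM, other saline libraries 807.7 to 988.1), so the edgeR calls printed below that it changes are given with and without it.

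Satb1 RNA was lower on average in MPTP, while that of Zdhhc8, the other proposed regulator, was close to its saline level. Zdhhc2 and Zdhhc5 averaged less and Zdhhc17 slightly more in MPTP. With all 8 libraries none of the 5 genes passed the threshold, an adjusted p of 0.05 over 15999 genes in edgeR's quasi-likelihood test, which called 0.106% of all genes (0.075% higher and 0.0313% lower). Without saline 3, Satb1 was called lower. The members' MPTP and saline ranges overlapped for all 5 genes, where 4.19% of all genes had ranges that did not overlap (2.04% with MPTP higher and 2.14% with MPTP lower).

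Satb1 had 266.2, 267.7, 315.6 and 326.9 CPM in MPTP replicates 1 to 4 and 382.0, 439.8, 296.2 and 376.8 CPM in saline replicates 1 to 4. All MPTP libraries lay below saline 1, 2 and 4, and saline 3 fell among the MPTP libraries. The mean was 294.1 ± 31.7 CPM in MPTP against 373.7 ± 59.0 CPM in saline (SD, n = 4 per group). The log2 fold change (MPTP minus saline) was -0.35 with a standard error (SE) of 0.11, a 95% interval of -0.58 to -0.11 and an adjusted p of 0.415 in edgeR. Its unadjusted p of 0.00695 was under 0.05, which held for 8.78% of all genes. In bulk RNA of this kind, fewer cells of a type and less RNA per cell cannot be told apart.

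Without saline 3 the log2 fold change of Satb1 was -0.44 (SE 0.09, 95% interval -0.64 to -0.25, edgeR adjusted p = 0.0265), in a fit that called 0.983% of genes lower. With all 8 libraries and a covariate that scores non-neuronal markers, it was -0.19 (95% interval -0.37 to -0.02, edgeR adjusted p = 0.693). Without saline 3 and with the same covariate it was -0.18 (SE 0.14, 95% interval -0.47 to 0.10, edgeR adjusted p = 0.637). The non-neuronal score, the mean log2 CPM of the astrocyte, oligodendrocyte, microglial and endothelial lists, averaged 2.55 ± 0.17 in MPTP against 2.28 ± 0.45 in saline (SD, n = 4 per group). It was 2.40 to 2.78 in MPTP and 1.86 to 2.33 in the saline libraries other than saline 3, which had 2.89. The fitted drop of Satb1 was thus smaller once this score was in the fit, whether or not saline 3 was left out. Without saline 3 the score ranges of MPTP and saline did not overlap, so that fit can hardly separate the score from the treatment. Its interval for Satb1 still includes the -0.44 found without the covariate, and whether cell composition accounts for the drop was not tested.

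Zdhhc8 had 54.0, 55.7, 50.9 and 55.3 CPM in MPTP replicates 1 to 4 and 54.6, 43.4, 52.1 and 49.3 CPM in saline replicates 1 to 4. Saline 1 lay among the MPTP values and saline 2 was the lowest library. Its log2 fold change was 0.11 (SE 0.09, edgeR adjusted p = 0.758), with a 95% interval of -0.08 to 0.31. Without saline 3 it was 0.14 (SE 0.10, edgeR adjusted p = 0.521). The sign turned, to -0.074 (SE 0.15, edgeR adjusted p = 0.904), when the covariate was added to that fit.

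Zdhhc5, which works on synaptic and dendritic proteins and shares substrates such as Grip1 with Zdhhc8, had 52.9, 47.0, 54.3 and 50.8 CPM in MPTP replicates 1 to 4. Its saline values were 61.6, 59.2, 48.1 and 68.1 CPM in replicates 1 to 4. As for Satb1, every MPTP library lay below saline 1, 2 and 4, and saline 3 was among the MPTP libraries. The log2 fold change was -0.21 (SE 0.10, 95% interval -0.43 to 0.01, edgeR adjusted p = 0.596) with all libraries. It was -0.30 (SE 0.09, edgeR adjusted p = 0.109) without saline 3, and -0.097 (edgeR adjusted p = 0.895) with all libraries and the covariate. Without saline 3 and with the covariate it was -0.22 (SE 0.16, edgeR adjusted p = 0.617).

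Zdhhc2, which palmitoylates the postsynaptic scaffold Dlg4 (PSD-95), had 71.8, 79.1, 68.9 and 89.3 CPM in MPTP replicates 1 to 4 and 103.4, 100.9, 78.1 and 89.3 CPM in saline replicates 1 to 4. MPTP 4 and saline 4 had the same rounded value, and saline 3 lay below MPTP 2. Zdhhc2 had a log2 fold change of -0.27 (SE 0.11, 95% interval -0.49 to -0.04, edgeR adjusted p = 0.492), and -0.34 (SE 0.10, edgeR adjusted p = 0.0838) without saline 3. With the covariate it was -0.19 (edgeR adjusted p = 0.806) with all libraries and -0.35 (SE 0.17, edgeR adjusted p = 0.44) without saline 3. DESeq2 without saline 3, which called 2.58% of genes lower, put Satb1 (adjusted p = 0.000874), Zdhhc2 (adjusted p = 0.0297) and Zdhhc5 (adjusted p = 0.0451) past the threshold.

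Zdhhc17, also called huntingtin-interacting protein 14, palmitoylates Snap25, huntingtin and the vesicle chaperone Dnajc5. It had 49.2, 41.5, 44.6 and 45.1 CPM in MPTP replicates 1 to 4 and 38.2, 44.1, 43.5 and 43.8 CPM in saline replicates 1 to 4. The groups overlapped, with saline 1 the lowest library and MPTP 1 the highest. Zdhhc17 had a log2 fold change of 0.09 (SE 0.09, 95% interval -0.11 to 0.28, edgeR adjusted p = 0.822) with all libraries and 0.10 (SE 0.10, edgeR adjusted p = 0.654) without saline 3. With the covariate it was 0.11 (edgeR adjusted p = 0.889) with all libraries and 0.30 (SE 0.16, edgeR adjusted p = 0.515) without saline 3.

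**Figure D1:**
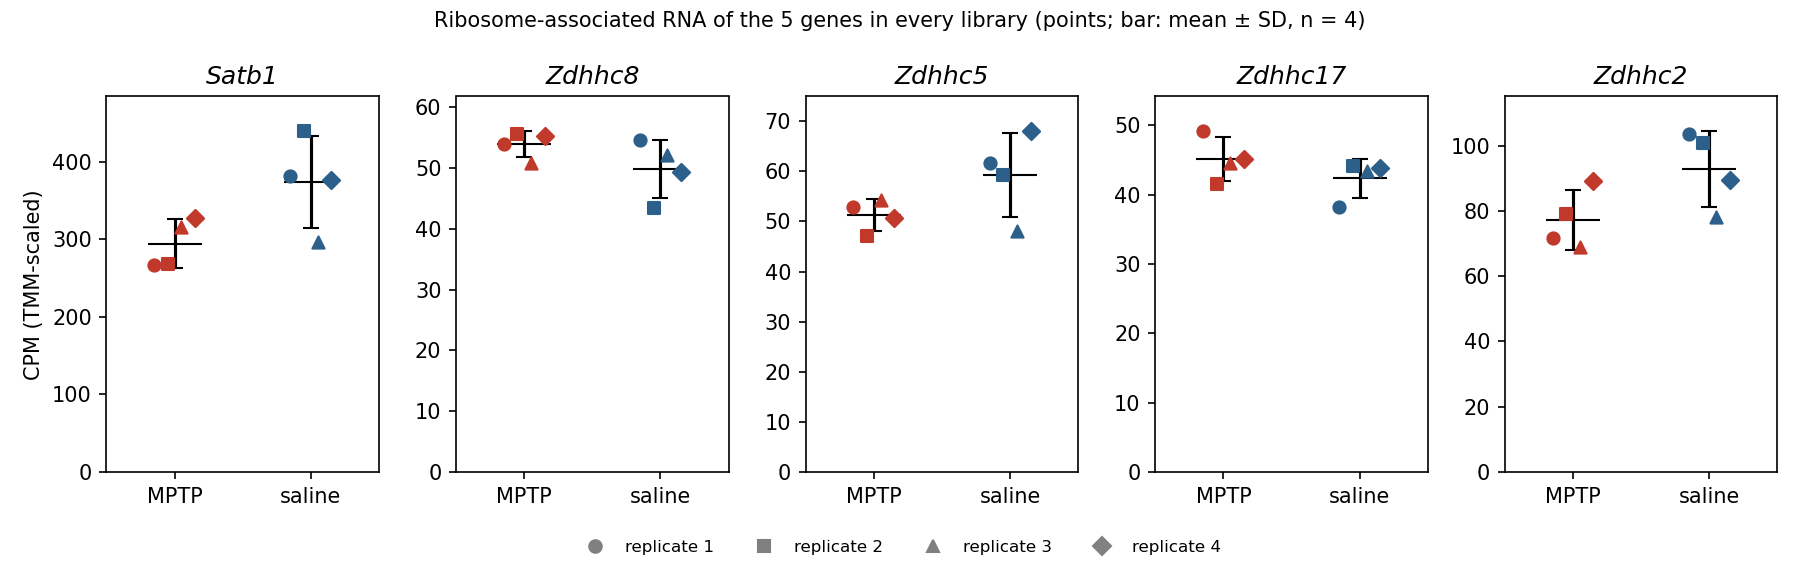
Level of each of the 5 genes in CPM (vertical axes from 0, one per gene) in the 4 MPTP and 4 saline libraries, with points for libraries, marker shapes for replicate numbers and bars for the mean ± SD. For Satb1 and Zdhhc5 the triangle of saline 3 sits among the MPTP points while the other saline points lie above them, and for Zdhhc8 and Zdhhc17 the groups are interleaved.

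**Figure D2:**
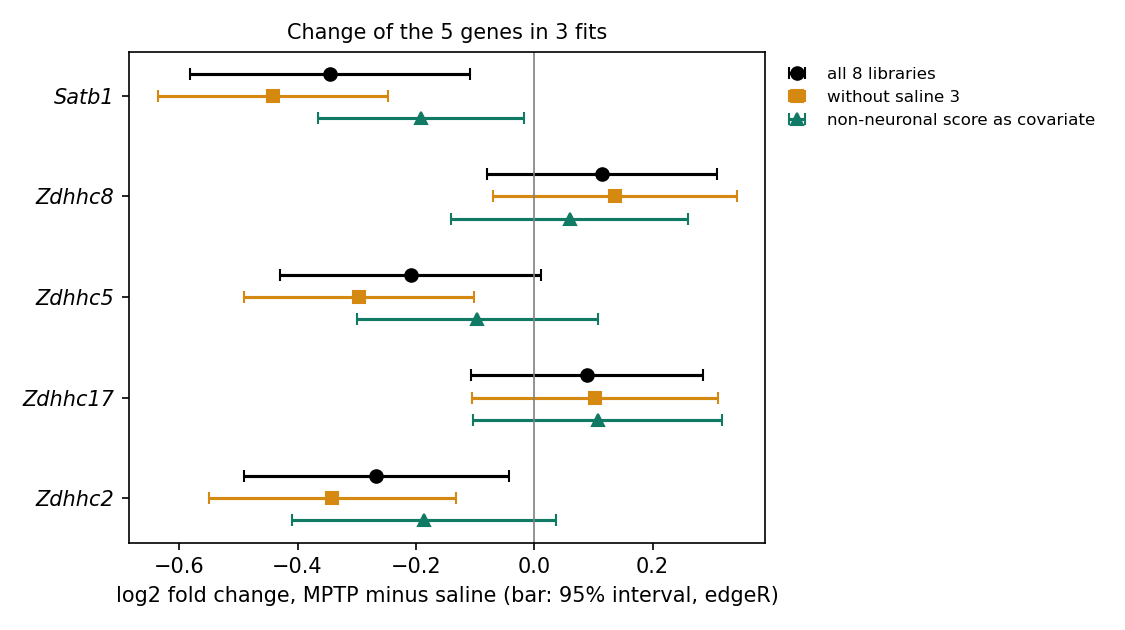
Log2 fold change (MPTP minus saline, horizontal axis) of the 5 genes with 95% intervals from edgeR, for 3 fits, which used all 8 libraries, left out saline 3, or added the non-neuronal score. Satb1 lies at -0.35, -0.44 and -0.19 in that order, and the intervals of Zdhhc8 and Zdhhc17 include 0 in each.

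The level of Satb1 was next set beside the marker scores of the same libraries. Saline 1, 2 and 4, which had 376.8 to 439.8 CPM of Satb1, had dopaminergic marker scores (mean log2 CPM of the 16 markers) of 7.91 to 7.96. Saline 3, with 296.2 CPM of Satb1, had a score of 7.35, and the MPTP libraries lay between, at 7.54 to 7.80. The score averaged 7.64 ± 0.11 in MPTP against 7.78 ± 0.29 in saline (SD, n = 4 per group; exact two-sided permutation p = 0.4). Subtracting the score from the log2 CPM of Satb1 in each library left 0.51, 0.44, 0.70 and 0.55 in MPTP replicates 1 to 4. It left 0.67, 0.82, 0.86 and 0.65 in saline replicates 1 to 4. On this scale saline 3 was the highest library, and 3 of the 4 MPTP libraries lay below every saline library. The mean was 0.55 ± 0.11 in MPTP and 0.75 ± 0.11 in saline, a difference of -0.20 (exact two-sided permutation p = 0.0857, 0.114 after adjustment over the 4 ratios computed). With 4 libraries a group this test cannot give a p below 0.0286.

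**Figure D3:**
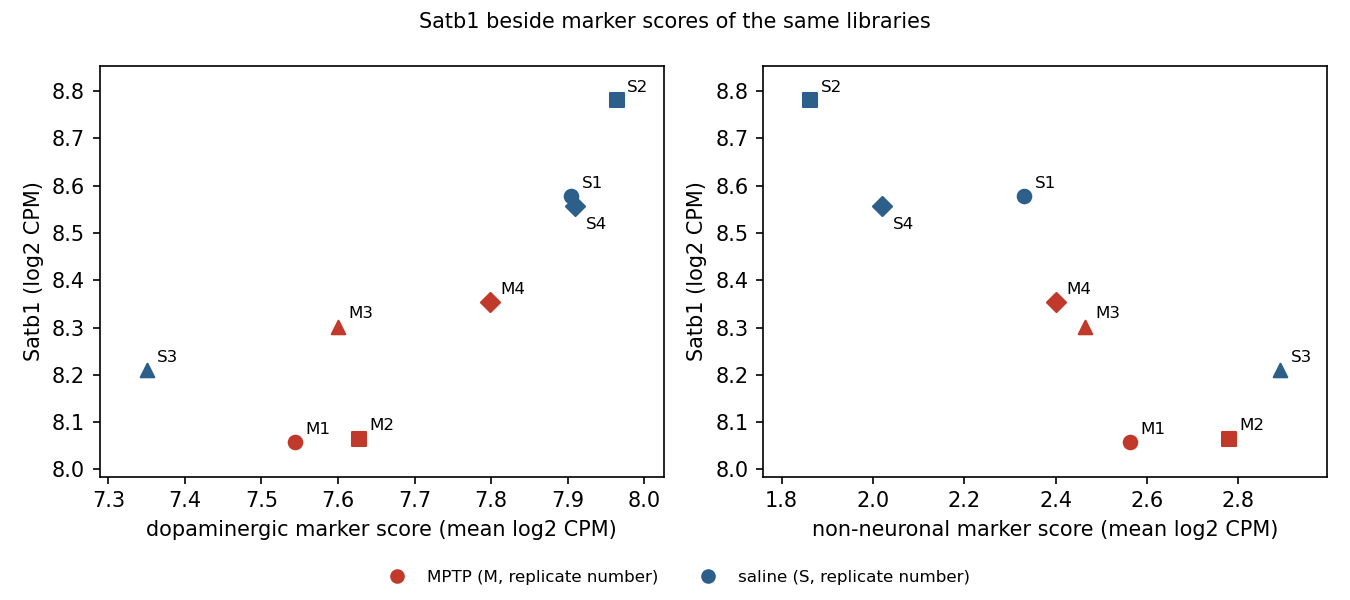
Satb1 level (log2 CPM, vertical axes) against the dopaminergic marker score (left) and the non-neuronal marker score (right) in the MPTP (M) and saline (S) libraries, numbered by replicate. Saline 3 (S3) lies apart from the other saline libraries on both scores, at 7.35 and 2.89, and within the MPTP range in Satb1.

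Ratios between relatives within a library do not depend on library scaling. The log2 ratio of Zdhhc8 to Zdhhc5, the closest pair in sequence, was 0.03, 0.24, -0.10 and 0.12 in MPTP replicates 1 to 4 and -0.17, -0.45, 0.12 and -0.47 in saline replicates 1 to 4. All MPTP libraries lay above saline 1, 2 and 4, and saline 3 lay among them. The mean ratio was 0.07 ± 0.14 in MPTP and -0.24 ± 0.27 in saline, a difference of 0.32 (exact two-sided permutation p = 0.114, also 0.114 after adjustment over the 4 ratios).

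The log2 ratio of Zdhhc2 to Zdhhc17 was 0.54, 0.93, 0.63 and 0.98 in MPTP replicates 1 to 4 and 1.44, 1.19, 0.84 and 1.03 in saline replicates 1 to 4. The groups overlapped through saline 3 alone. The mean ratio was 0.77 ± 0.22 in MPTP and 1.12 ± 0.25 in saline, a difference of -0.35 (exact two-sided permutation p = 0.114, 0.114 after adjustment). A ratio shows unequal change within a pair and does not say which gene changed.

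**Figure D4:**
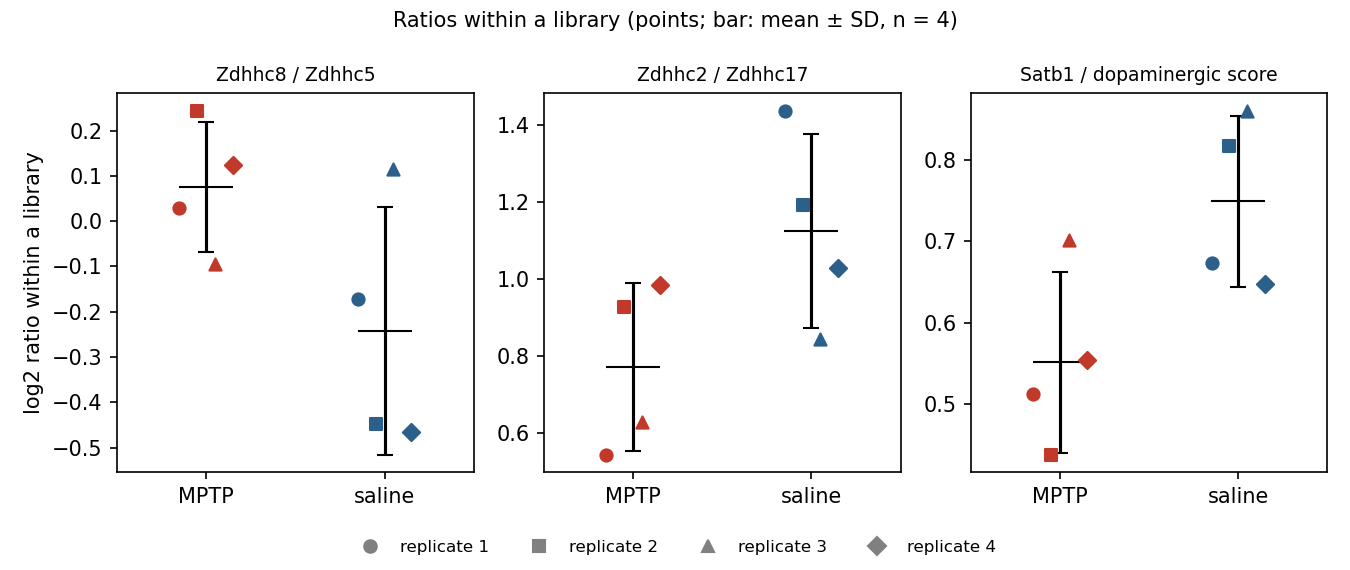
Log2 ratio within each library (vertical axes, which do not start at 0) for Zdhhc8 to Zdhhc5, Zdhhc2 to Zdhhc17 and Satb1 to the dopaminergic score, with points for MPTP and saline libraries and bars for the mean ± SD. The groups overlap in all 3 panels, with saline 3 among the MPTP libraries in the first and second and highest in the third.

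Levels of different genes were compared as CPM per kilobase of exon. Satb1 had 25.6 ± 2.76 CPM per kilobase in MPTP against 32.5 ± 5.14 in saline (SD, n = 4 per group), higher than 85.8% of the tested genes with a known length. Its annotated exons add up to 11491 bases while its longest transcript has 6243, and with the transcript length the levels were 47.1 CPM per kilobase in MPTP and 59.9 in saline.

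Zdhhc2 was the highest of the DHHC genes, at 21.6 ± 2.55 CPM per kilobase in MPTP and 26.01 ± 3.26 in saline, and made up 11.4% of the family's summed level in MPTP and 14.0% in saline. Its range overlapped that of the next gene, Zdhhc9, in both groups, so their order was not clear beyond the spread. Zdhhc5 (10.9 ± 0.68 in MPTP, 12.6 ± 1.77 in saline), Zdhhc8 (11.1 ± 0.45 in MPTP, 10.2 ± 0.99 in saline) and Zdhhc17 (9.92 ± 0.70 in MPTP, 9.32 ± 0.62 in saline) were near each other. Neighbours among these 3 overlapped in both groups, and their highest library (14.5 CPM per kilobase, Zdhhc5 in saline) stayed below the lowest of Zdhhc2 (19.3, in MPTP). The family sum was 188.6 ± 9.05 CPM per kilobase in MPTP and 185.6 ± 6.06 in saline.

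**Figure D5:**
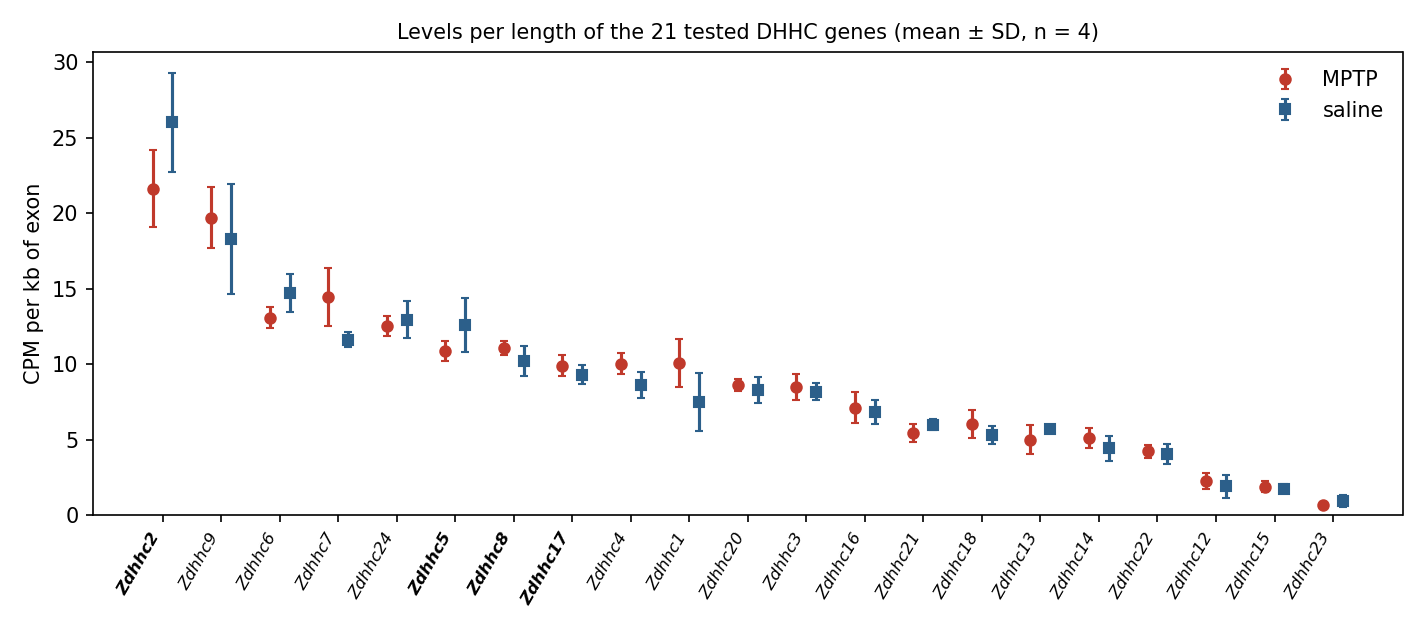
Level of the 21 tested DHHC genes in CPM per kilobase of exon (vertical axis from 0), as mean ± SD of the 4 MPTP and 4 saline libraries, ordered by the mean over all libraries with the members in bold. Zdhhc2 stands at 21.6 in MPTP and 26.01 in saline, and Zdhhc5, Zdhhc8 and Zdhhc17 lie together between 9 and 13.

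The DHHC family, counted here with Zdhhc8, Zdhhc5, Zdhhc17 and Zdhhc2, gave no call with all libraries. Of 24 family genes, all in the table, 21 could be tested, and Zdhhc11, Zdhhc19 and Zdhhc25 were too low. None was called in either direction by edgeR, and 14 lay above 0 and 7 below, with a median log2 fold change of 0.06 against 0.001 for all genes. Of the 21 tested, Zdhhc7, Zdhhc1 and Zdhhc2 reached an unadjusted edgeR p under 0.05, which held for 8.78% of all genes. Zdhhc7, a Golgi enzyme with broad substrates, had 50.3, 44.8, 36.1 and 46.3 CPM in MPTP replicates 1 to 4 and 33.5, 36.0, 36.4 and 37.0 CPM in saline replicates 1 to 4, and only MPTP 3 fell within the saline range. Its log2 fold change was 0.31 (SE 0.11, edgeR adjusted p = 0.415).

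Zdhhc1 had 18.4, 21.6, 18.1 and 25.1 CPM in MPTP replicates 1 to 4 and 12.1, 15.4, 21.1 and 13.4 CPM in saline replicates 1 to 4. Saline 3 was the one saline library within the MPTP range. Zdhhc1 had a log2 fold change of 0.42 (SE 0.17, edgeR adjusted p = 0.491) with all libraries. Without saline 3 Zdhhc1 was called higher, at 0.61 (SE 0.15, edgeR adjusted p = 0.0449), in a fit that called 0.853% of genes higher. It was the only DHHC gene called in that fit. With the covariate it was not called, at 0.85 (SE 0.25, edgeR adjusted p = 0.201) without saline 3 and 0.32 (edgeR adjusted p = 0.754) with all libraries.

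Enzymes that remove palmitate showed no call either. All 9 depalmitoylases were tested, 6 above 0 and 3 below, with a median log2 fold change of 0.02. Abhd10, a mitochondrial depalmitoylase, was the furthest below, at 60.9 ± 2.30 CPM in MPTP against 71.4 ± 13.2 CPM in saline (log2 fold change -0.23, SE 0.11, edgeR adjusted p = 0.587). The 3 accessory subunits of DHHC enzymes all lay below 0 without a call, with Golga7, the partner of Zdhhc9, at -0.15, Selk (selenoprotein K, the partner of Zdhhc6) at -0.13 and Golga7b, a partner of Zdhhc5, at -0.08.

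Of 40 neuronal proteins known to carry palmitate, 15 lay above 0 and 25 below, with a median log2 fold change of -0.06 and no call with all libraries. This list shares Slc6a3 and Drd2 with the dopaminergic markers. Snap23, a membrane fusion protein, was the 1 gene of the 40 whose groups did not overlap, where 4.19% of all genes had groups that did not. It stood at 7.74, 4.82, 6.91 and 7.04 CPM in MPTP replicates 1 to 4 and 9.63, 9.86, 10.6 and 8.08 CPM in saline replicates 1 to 4. Its log2 fold change was -0.53 (SE 0.18, edgeR adjusted p = 0.419). Slc6a3, the dopamine transporter and a known palmitoylated protein, had a log2 fold change of -0.23 (edgeR adjusted p = 0.618) with all libraries. Without saline 3 it was -0.35 (SE 0.09) and called lower (edgeR adjusted p = 0.0462), the only call of the list in that fit. Over all genes the fit called 0.983% lower and 0.853% higher. With the covariate it was -0.069 (edgeR adjusted p = 0.94) with all libraries and -0.30 (SE 0.15, edgeR adjusted p = 0.444) without saline 3. Slc6a3 is itself among the markers whose low sum set saline 3 apart (2505 CPM in saline 3, other saline libraries 3616 to 3777). Its call without that library is therefore not independent of the choice to leave saline 3 out. The G protein subunit Gnaq was at -0.15 and Htt (huntingtin) at -0.15, and Snap25 and Dlg4, substrates of Zdhhc17 and Zdhhc2, were not past the threshold either.

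On the Satb1 side, the CUT and Onecut homeobox factors with the smallest p were Cux2, of the CUT family, at -0.10 and Onecut2, a related factor, at 0.17 on the log2 scale (edgeR adjusted p = 0.834 for both). No gene of that list, which includes Satb1, was called with all libraries. Satb1 was its only edgeR call without saline 3, in a fit that called 0.983% of genes lower. Of 17 cofactors that bind Satb1, 8 lay above 0 and 9 below, with a median log2 fold change of -0.01. Ctnnb1 (beta-catenin), which Satb1 recruits, had 220.0 ± 7.28 CPM in MPTP against 253.1 ± 34.2 CPM in saline (log2 fold change -0.20, SE 0.10, edgeR adjusted p = 0.566). Without saline 3 it was -0.29 in edgeR (adjusted p = 0.0637) and in DESeq2, which called it lower (adjusted p = 0.00908), as it did 2.58% of genes. The remodellers Smarca5 and Chd4 lay at -0.21 and -0.17 and the histone deacetylase Hdac2 at -0.17, all without a call.

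Cdkn1a, the gene described as repressed by Satb1, had 13.6, 12.9, 14.9 and 15.2 CPM in MPTP replicates 1 to 4 and 17.4, 23.7, 14.7 and 22.9 CPM in saline replicates 1 to 4. All MPTP libraries lay below saline 1, 2 and 4, and saline 3 lay within the MPTP range. The log2 fold change was -0.48 (SE 0.15, 95% interval -0.79 to -0.16, edgeR adjusted p = 0.415) with all libraries. Without saline 3 it was -0.59 (SE 0.14) and called lower (edgeR adjusted p = 0.037), in a fit that called 0.983% of genes lower. With the covariate in that fit it was -0.17 (SE 0.21, edgeR adjusted p = 0.808). Satb1 and Cdkn1a thus both lay below 0 in these fits. Of the 14 genes listed for cell cycle inhibition and senescence, 12 were tested, 5 above 0 and 7 below, with a median of -0.05. Rb1, the retinoblastoma protein, had MPTP values of 45.4 to 51.6 CPM, all below the saline values of 52.4 to 62.6 CPM (log2 fold change -0.18, edgeR adjusted p = 0.601). It was the 1 tested gene of this list whose groups did not overlap, where 4.19% of all genes had groups that did not (2.14% with MPTP lower).

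Zdhhc8 lies in the mouse interval that corresponds to the human DiGeorge deletion region. Of 33 genes listed around it, 32 were in the table and 30 were tested, 19 above 0 and 11 below, with a median log2 fold change of 0.05 and no call. Ranbp1, at 4.65 kb the nearest of the listed genes that were in the table, had a log2 fold change of -0.11. Arvcf, a catenin, was at 0.24, Trmt2a, a tRNA methyltransferase, at 0.16 and Tango2 at -0.16.

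Among 9768 genes whose mean log2 CPM was 3 or more, the profiles most like that of Satb1 were sought by the root mean square difference of centred log2 CPM over the 8 libraries. They were Plcxd2 (0.060), Mapk9, which encodes the kinase JNK2 (0.061), the orphan receptor Gpr26 (0.065), Myo5a, a myosin motor (0.068), and Efcab1 (0.069), where the median over all genes was 0.266. Those closest to Zdhhc8 were Txndc11 (0.040), Nfasc (neurofascin, 0.044), Scd2, a fatty acid desaturase (0.049), Tmem150c (0.049) and Heca (0.051), with a median of 0.195. These sets depended on single libraries. Leaving out 1 library kept 0 to 3 of the 5 genes in either set, with none of the Satb1 set kept without MPTP 2 and none of the Zdhhc8 set kept without saline 1 or without saline 2.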

How the data were processed

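The 5 genes and the gene lists were chosen with earlier results of these data known. TopHat2 2.0.8 and the mm10 build (GRCm38) are named in the submitters' processing notes, and the sources used here do not give the counting tool, annotation or strand setting. The authors deposited raw counts per gene for 8 libraries, 54192354 to 78892061 counts each. A kit without strand marking amplified the cDNA, per the labels' protocols, and 100-base single-end reads were made with a pair of libraries sharing a run. Reads carry no molecular identifiers. The part of the sequencing run was not tested. Of the symbols, 27 that had become dates were restored by Entrez identifier from RefSeq, and 90 genes without a symbol held 0.0505% to 0.056% of counts.

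Counts were analysed with edgeR 4.0.16 in R 4.3.3 (TMM scaling, filterByExpr, robust quasi-likelihood F-test, no covariate), with Benjamini-Hochberg adjustment over all 15999 genes tested and a threshold of 0.05. CPM use the TMM-scaled library size, and log2 CPM a prior count of 2. Each SE was derived from the log2 fold change and its F statistic. For ratios and scores, 2-sided exact permutation tests used all 70 ways to choose 4 of the 8 libraries. Positions, coding sequences and exon lengths (known for 15375 of the genes tested) are from GENCODE vM21.

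Replicates are numbered in the labels without a statement on separate animals, so p-values measure the spread between these libraries, which may be technical. No pair within a group agreed within sampling noise (chi-square per degree of freedom 32.0 to 96.2). Simulated counts with known changes were used to test the edgeR script.

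Named in every case were the 5 genes, the DHHC family and Cdkn1a, then up to 4 genes with the smallest p per list and the 5 genes most like Satb1 and Zdhhc8. Snap25, Dlg4 and Ranbp1 fall outside this rule and were added with their values known. Cell type markers were described by list. Results of a few genes that the rule would name, and 1 of the 4 ratios in the adjusted family, are not reported here. Alternatives were other scalings, filters and prior counts, DESeq2 1.42.0, limma voom 3.58.1 with sample weights, the replicate number as a block, a non-neuronal score as covariate, the longest transcript as length, and leaving out each library. Leaving out saline 3 with the covariate or with DESeq2, and the repeats of the likeness search, were chosen after seeing the data. DESeq2 here refers to its Wald test on the deposited counts.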

Additional observations from a re-analysis of the deposited data

Results flagged for a closer look

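In 9 of 128 groups of 4 libraries checked, 1 library lay far from the other 3 for its group's range, where chance alone flags about 1 in 20. Among the members this was Zdhhc17, at 38.2 CPM in saline 1 against 43.5 to 44.1 in the other saline libraries. In the DHHC family Zdhhc18 had 34.1 CPM in MPTP 4, with 24.8 to 26.1 in the other MPTP libraries, and Zdhhc13 had 8.71 CPM in MPTP 3, with 12.9 to 13.4 in the others. Saline 3 stood apart in Slc6a3, the dopamine transporter (2505 CPM, other saline libraries 3616 to 3777), in the dopaminergic marker score (7.35, other saline libraries 7.91 to 7.96), and in the chromatin remodeller Chd4 (63.8 CPM, other saline libraries 69.2 to 70.04). Rb1 had 45.4 CPM in MPTP 3, with 50.8 to 51.6 in the other MPTP libraries. Cux2 had 62.9 CPM in saline 1, with 46.0 to 48.8 in the other saline libraries, and Scd2 had 418.1 CPM in saline 2, with 483.5 to 496.0 in the others.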

How the results depend on the processing

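The number of the 5 genes called was 0 with all libraries, 0 to 1 when single libraries were left out (Satb1 without saline 3), and 3 with DESeq2 without saline 3. All these calls were lower in MPTP. Without saline 3, edgeR called 0.983% of all genes lower and DESeq2 2.58%. Without saline 3 the log2 fold change of Satb1 was -0.44 in edgeR and -0.44 in DESeq2, and in DESeq2 that of Zdhhc5 was -0.30 and that of Zdhhc2 -0.34. Leaving out single libraries gave ranges of -0.44 to -0.26 for Satb1, 0.05 to 0.16 for Zdhhc8, -0.30 to -0.13 for Zdhhc5, 0.05 to 0.13 for Zdhhc17 and -0.34 to -0.21 for Zdhhc2. Without saline 3 and with the covariate, signs turned for Zdhhc8 (-0.074), Zdhhc23 (0.42), Zdhhc16 (-0.24), Ppt2 (-0.39), Txndc11 (-0.029), Nfasc (-0.032), Scd2 (-0.031) and Heca (-0.066), and with the covariate and all libraries for Zdhhc20 (-0.020) and Zdhhc24 (0.028). Leaving out single libraries gave ranges through 0 for Zdhhc15 (-0.0075 to 0.22), Zdhhc3 (-0.014 to 0.096), Zdhhc22 (-0.021 to 0.15), Zdhhc16 (-0.013 to 0.13), Abhd17c (-0.064 to 0.16) and Cux2 (-0.17 to 0.014). None of these was past the threshold in either fit, and the cause was not tested. With the longest transcript as length, Satb1 had 47.1 CPM per kilobase in MPTP and 59.9 in saline. The 3 ratios given kept their sign in every alternative, and none passed 0.05 after adjustment.

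Over all genes edgeR called 12 higher and 5 lower with all libraries, and 138 higher and 159 lower without saline 3. DESeq2 called 25 higher and 28 lower with all libraries, and 411 higher and 418 lower without saline 3. A mean CPM of at least 5 gave 7 higher and 4 lower, leaving out MPTP 2 gave 11 and 1, MPTP 3 11 and 2, MPTP 4 8 and 0, and saline 1 10 and 0, and without saline 3 the covariate gave 13 and 26.

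Libraries with the same replicate number did not deviate together (correlations -0.02, -0.12, -0.03 and 0.04). These values show no sign of pairing by number, but they cannot exclude that the design paired the libraries. With the replicate number as a block, the log2 fold change of Satb1 was -0.34, of Zdhhc8 0.12, of Zdhhc5 -0.20, of Zdhhc17 0.09 and of Zdhhc2 -0.27, with 10 genes called higher and 4 lower over the table.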
